A study of Mus musculus with 21 samples.

Results

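Nnat and 9 other imprinted genes, Meg3, Rian, Dlk1, Plagl1, Peg3, Grb10, Mest, Impact and H19, were followed in pancreatic islets. The 10 genes were picked by symbol with their counts in these samples already known. Each symbol matched 1 Ensembl identifier among the 55536 in the files, and all 10 had at least 10 reads summed over the samples, as did 27229 genes in all. The values of the picked genes are therefore given below as a description, and calls from the fit of all genes are counted for them without being read as a test.

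Imprinted genes are transcribed from the copy inherited from a single parent, owing to methylation marks that are set in the germ line on 1 of the 2 copies. Many of them act on growth and on the supply of nutrients, and several are abundant in endocrine cells. Neuronatin, the product of Nnat, is a small membrane protein of the endoplasmic reticulum that in beta cells binds the signal peptidase complex and takes part in the processing of preproinsulin. The counts used here do not separate the parental copies, so they give the sum of both.

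The islets came from male CBA mice on regular diet (RD), on high-fat diet (HFD) or on HFD containing O304 at 0.8 mg per g of diet (HFD-O304). O304 activates AMPK, the kinase with which cells gauge their energy supply. The mice were 10 weeks old when the diets began and stayed on them for 9 weeks by the methods, or 10 weeks by the text on the results. Each group had 7 samples, each made from 150 islets of a pool of 5 mice, so that the spread between samples is one between pools. By the labels the groups differ in diet and in O304, and O304 was given on HFD alone.

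Read pairs on genes ranged from 13809266 to 48922569 per sample, and HFD-O304 replicate 2 was the shallowest. HFD-O304 replicate 1 carries the diet label HFD and was grouped by its title; its Cd36, 990 normalized counts, lay within the 944 to 1413 of HFD-O304 and above the highest HFD sample, 149. Normalized counts are read pairs divided by the DESeq2 size factor of each sample. The library numbers fall into a set of replicates 1 to 4 and a set of replicates 5 to 7, and values within each set are given for the main results. Among the cell type markers used, those of beta cells had the highest summed level, 9391820 to 13779300 normalized counts over 9 genes in the 21 samples.

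Several of the 10 genes lie in imprinted clusters whose methylated regions hold a short sequence read by ZFP57, a zinc finger protein that keeps the mark in place. RefSeq promoter windows (GRCm38.p6, the reference strain and not CBA, 250 bases before and 50 after each start) were found for 8 of the 10 genes, 12 windows in all, with none for Impact and H19. The ZFP57 hexamer TGCCGC, or its reverse complement GCGGCA, was in 6 of these 12 windows, against 11.6% of all 32851 windows. The matches belonged to 5 genes, Nnat, Meg3, Plagl1, Grb10 and Mest. They are printed with the hexamer in capitals, 5′ to 3′ on the strand of the gene, since the hexamer was the sequence looked for. The windows of Rian, Dlk1 and Peg3 held no match, nor did another window each of Meg3, Grb10 and Mest. A pair of overlapping Mest windows hold the same matches, of which the one nearer the start is shown.
Nnat, chr2:157560093-157560122, 27 bases after the start: gccaccggggctGCGGCAttgcgcccagca
Meg3, chr12:109540794-109540823, 190 bases before the start: gccaggggcactGCGGCAgatttttttttc
Plagl1, chr10:13090730-13090759, 90 bases before the start: ctggcgtgttgcGCGGCAaagcccacggca
Grb10, chr11:12037379-12037408, minus strand, 24 bases after the start: gggtgcggggagGCGGCAggaagggaaggg
Mest, chr6:30737971-30738000, 67 bases before the start: aggaggggcgctGCGGCAggatgggcgggt
Methylation was not measured in these samples, and a match of letters is not a binding site. The hexamer itself holds a CpG dinucleotide. The windows with a match held from 13 (Meg3) to 45 (Grb10) of these, with 17 in the Nnat window, against a median of 7 over all windows. The 11.6% thus comes from windows of unlike CpG content, and enrichment of the hexamer was not tested. The 250 bases before the Nnat start (chr2:157559828-157560077, plus strand) are printed with their 12 CpG dinucleotides in capitals, since Nnat is the gene with the widest difference between groups.
Nnat, 250 bases before the start: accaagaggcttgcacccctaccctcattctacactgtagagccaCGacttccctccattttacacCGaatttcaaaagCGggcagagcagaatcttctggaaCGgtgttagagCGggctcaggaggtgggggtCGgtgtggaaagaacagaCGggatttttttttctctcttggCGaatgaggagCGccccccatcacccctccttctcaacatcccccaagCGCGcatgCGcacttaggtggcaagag

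Levels of different genes were compared per kilobase of exon, as normalized counts per kb. In RD islets Peg3 was the most abundant, at 3370 ± 354 normalized counts per kb (SD, n = 7), followed by Impact at 723 ± 24.6, Rian at 265 ± 31.8, Grb10 at 218 ± 10.5 and Nnat at 165 ± 39.2. Meg3 at 80.6 ± 29.2, Plagl1 at 66.4 ± 5.89 and Mest at 60.7 ± 15.8 came next, and Dlk1 at 4.09 ± 1.39 and H19 at 0.253 ± 0.505 were last. The ranges of neighbours in this order overlapped for Rian and Grb10, Nnat and Meg3, Meg3 and Plagl1, and Plagl1 and Mest, so their order is not set by these samples. The order by mean was the same in HFD islets, whereas in HFD-O304 islets Nnat came after Peg3 and Impact, at 584 ± 118.8 normalized counts per kb, with a lowest sample of 386 above the highest of Rian, 361.

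Nnat (ENSMUSG00000067786, chr2:157560078-157562522, plus strand, paternally expressed) differed most between the groups. In RD islets its lowest, median and highest samples had 190, 333 and 370 normalized counts. In HFD islets they had 79.3, 163 and 263. In HFD-O304 islets they had 706, 1121 and 1397. All 7 HFD-O304 samples were above all 14 others, while the RD and HFD ranges overlapped. The mean was 301 ± 71.7 in RD islets, 167 ± 59.5 in HFD islets and 1068 ± 217 in HFD-O304 islets (SD, n = 7), that is 1.80-fold lower in HFD than in RD islets, 3.54-fold higher in HFD-O304 than in RD islets and 6.38-fold higher in HFD-O304 than in HFD islets. The fitted log2 fold changes were -0.84 (SE 0.19), 1.83 (SE 0.18) and 2.66 (SE 0.19) in the same order. The direction of Nnat held without each sample in turn, with -0.98 to -0.72 for HFD vs RD, where the threshold used below for all genes was no longer passed in 9 of 21 such fits. Within the library sets the log2 differences of HFD-O304 from HFD were 2.95 in replicates 1 to 4 and 2.43 in replicates 5 to 7, and those of HFD from RD were -1.08 and -0.64.

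**Figure D1:**
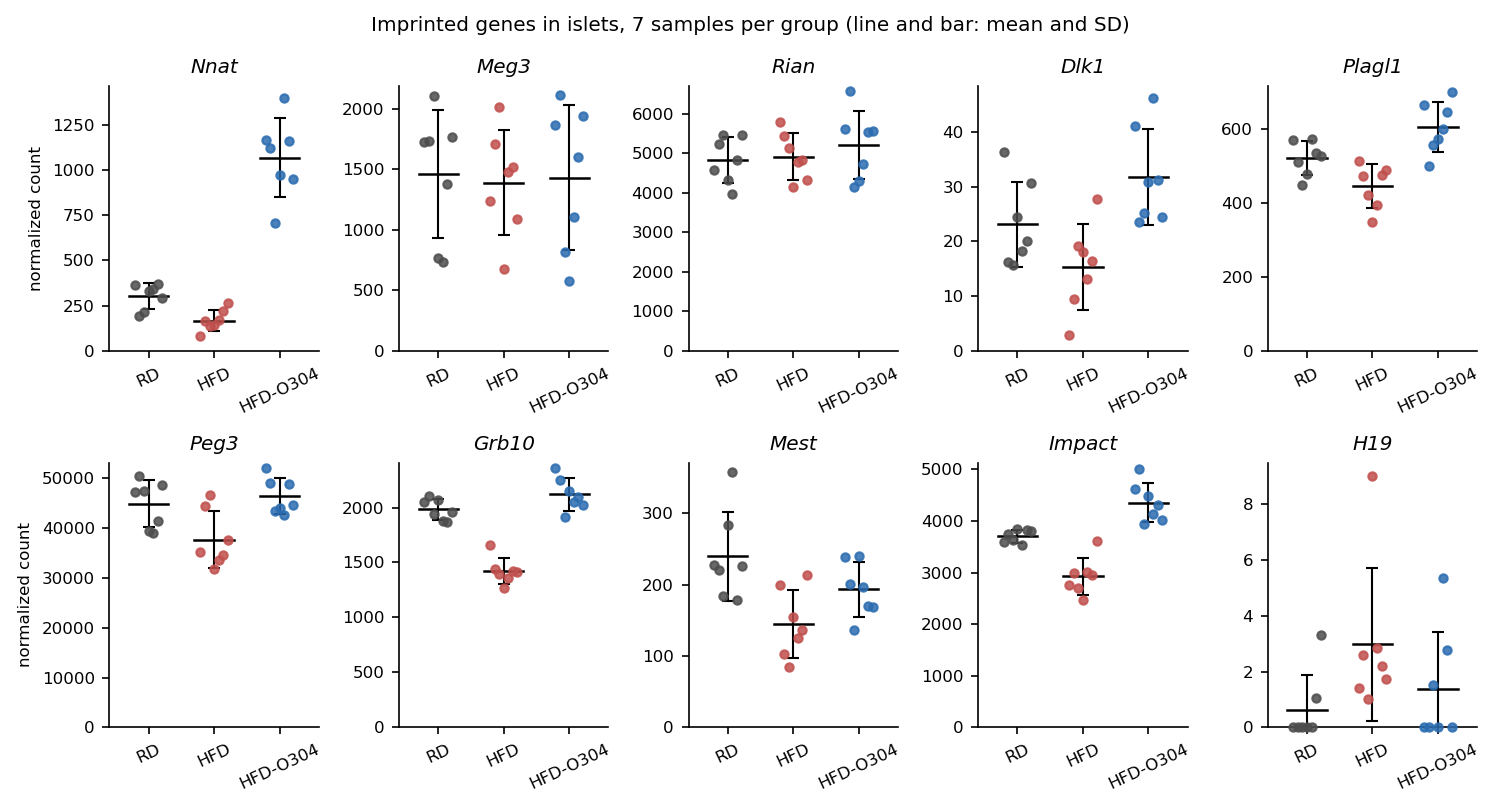
Normalized counts (y axis, from 0) of the 10 imprinted genes in RD, HFD and HFD-O304 islets, 1 point per sample in replicate order, with the mean as a line and the SD as a bar (n = 7 per group). The 7 HFD-O304 samples of Nnat lie between 706 and 1397, above every RD and HFD sample, while the ranges of Meg3 overlap in all groups.

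Nnat lies inside Blcap, a gene on the opposite strand. The count on the strand opposite to Nnat within its exons was 5.98% of the count on its own strand. Blcap was not among the picked genes and was tested: it had a mean of 1936 normalized counts in RD islets, 1836 in HFD islets and 2497 in HFD-O304 islets. It rose in HFD-O304 islets by a log2 fold change of 0.37 (SE 0.05) against RD (edgeR quasi-likelihood adjusted p = 0.000114) and of 0.45 (SE 0.05) against HFD (edgeR adjusted p = 8.9e-07), and its log2 fold change was -0.08 (SE 0.05, edgeR adjusted p = 0.443) between HFD and RD.

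Of the other paternally expressed genes, Peg3 (ENSMUSG00000002265, chr7:6703892-6730431, minus strand), which encodes a zinc finger protein, was the most abundant. Its lowest, median and highest samples had 39118, 47364 and 50520 normalized counts in RD islets, 31863, 35208 and 46624 in HFD islets and 42682, 44725 and 52193 in HFD-O304 islets. The ranges overlapped in every comparison. The HFD mean was the lowest, 37704 ± 5663, against 44896 ± 4713 in RD and 46487 ± 3600 in HFD-O304 islets (SD, n = 7), with log2 fold changes of -0.26 (SE 0.08) for HFD vs RD and 0.31 (SE 0.08) for HFD-O304 vs HFD.

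Impact (ENSMUSG00000024423, chr18:12955852-12992950, plus strand), whose product restrains the amino acid sensing kinase GCN2, had a narrow spread in RD islets. Its lowest, median and highest samples had 3529, 3740 and 3841 normalized counts in RD islets, 2469, 2958 and 3610 in HFD islets and 3943, 4304 and 5008 in HFD-O304 islets. All HFD-O304 samples were above all RD and HFD samples, while 1 HFD sample, replicate 7, lay within the RD range. The log2 fold changes were -0.35 (SE 0.07) for HFD vs RD, 0.23 (SE 0.07) for HFD-O304 vs RD and 0.58 (SE 0.07) for HFD-O304 vs HFD. Within the library sets the last of these was 0.72 in replicates 1 to 4 and 0.38 in replicates 5 to 7.

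Plagl1 (ENSMUSG00000019817, chr10:13060504-13131694, plus strand) encodes a zinc finger transcription factor. It had a mean of 519 ± 46.1 normalized counts in RD islets, 444 ± 59.0 in HFD islets and 604 ± 68.7 in HFD-O304 islets (SD, n = 7), and the ranges, 447 to 573, 347 to 513 and 499 to 697, overlapped. Its order of groups was that of Nnat, with a log2 fold change of 0.46 (SE 0.09) for HFD-O304 vs HFD.

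Mest (ENSMUSG00000051855, chr6:30723547-30748465, plus strand), which encodes an enzyme of the alpha/beta hydrolase family, was highest in RD islets. Its lowest, median and highest samples had 178, 226 and 357 normalized counts in RD islets, 84.4, 136 and 213 in HFD islets and 136, 197 and 240 in HFD-O304 islets. The 3 ranges overlapped. The log2 fold changes were -0.74 (SE 0.18) for HFD vs RD, -0.31 (SE 0.18) for HFD-O304 vs RD and 0.42 (SE 0.18) for HFD-O304 vs HFD, so that Mest alone among the paternally expressed genes of the 10 had a lower mean in HFD-O304 than in RD islets. The 3′ part of Mest overlaps Copg2 on the opposite strand, and the count on that strand within Mest exons was 57.5% of the count on the strand of Mest. The log2 fold changes of Copg2, which was tested, were -0.11, -0.09 and 0.02 (SE 0.06 in each), with edgeR adjusted p of 0.303, 0.549 and 0.856.

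Dlk1 (ENSMUSG00000040856, chr12:109452823-109463336, plus strand), a transmembrane protein related to the ligands of Notch, was scarce, with 526 read pairs over all samples. In normalized counts it had 15.7 to 36.3 in RD islets, 2.83 to 27.8 in HFD islets and 23.5 to 46.3 in HFD-O304 islets, with medians of 20.1, 16.4 and 30.9. Ranges overlapped throughout, and the log2 fold changes were -0.56 (SE 0.29) for HFD vs RD, 0.49 (SE 0.27) for HFD-O304 vs RD and 1.05 (SE 0.28) for HFD-O304 vs HFD.

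Among the 4 maternally expressed genes, Grb10 (ENSMUSG00000020176, chr11:11930508-12038683, minus strand) showed the clearest separation. It encodes an adaptor that binds the insulin and IGF1 receptors and dampens their signal. Its lowest, median and highest samples had 1871, 1964 and 2108 normalized counts in RD islets, 1267, 1417 and 1660 in HFD islets and 1910, 2099 and 2356 in HFD-O304 islets. All 7 HFD samples were below all RD and all HFD-O304 samples, and the latter groups overlapped. The means, 1983 ± 95.1, 1424 ± 119.3 and 2120 ± 147 (SD, n = 7), put HFD 1.39-fold below RD islets. The log2 fold changes were -0.48 (SE 0.06) for HFD vs RD, 0.10 (SE 0.06) for HFD-O304 vs RD and 0.58 (SE 0.06) for HFD-O304 vs HFD, and within the library sets those of HFD-O304 from HFD were 0.59 and 0.56.

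Meg3 (ENSMUSG00000021268, chr12:109541001-109571726, plus strand) and Rian (ENSMUSG00000097451, chr12:109603940-109661716, plus strand) are long noncoding RNAs read from the maternal copy of the cluster that holds Dlk1. Meg3 had lowest, median and highest samples of 736, 1725 and 2109 normalized counts in RD islets, 677, 1481 and 2013 in HFD islets and 580, 1605 and 2111 in HFD-O304 islets. Its spread within each group was wide, with coefficients of variation of 36.2%, 31.4% and 41.8%, and the group means of 1459, 1389 and 1431 differed by less than 1 SD of any group. Rian had 3981 to 5465, 4143 to 5788 and 4138 to 6575 normalized counts, with log2 fold changes between groups of 0.02 to 0.11 (SE 0.09 in each). Neither RNA separated the groups.

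H19 (ENSMUSG00000000031, chr7:142575529-142578143, minus strand), a maternally expressed noncoding RNA abundant in fetal tissue, was close to absent. It had 37 read pairs over the 21 samples, none in 9 of them, and at most 9 in 1 sample, HFD replicate 4. Its normalized counts were 0 to 3.29 in RD islets, 1.004 to 9.01 in HFD islets and 0 to 5.34 in HFD-O304 islets, and no fold is given at this depth.

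**Figure D2:**
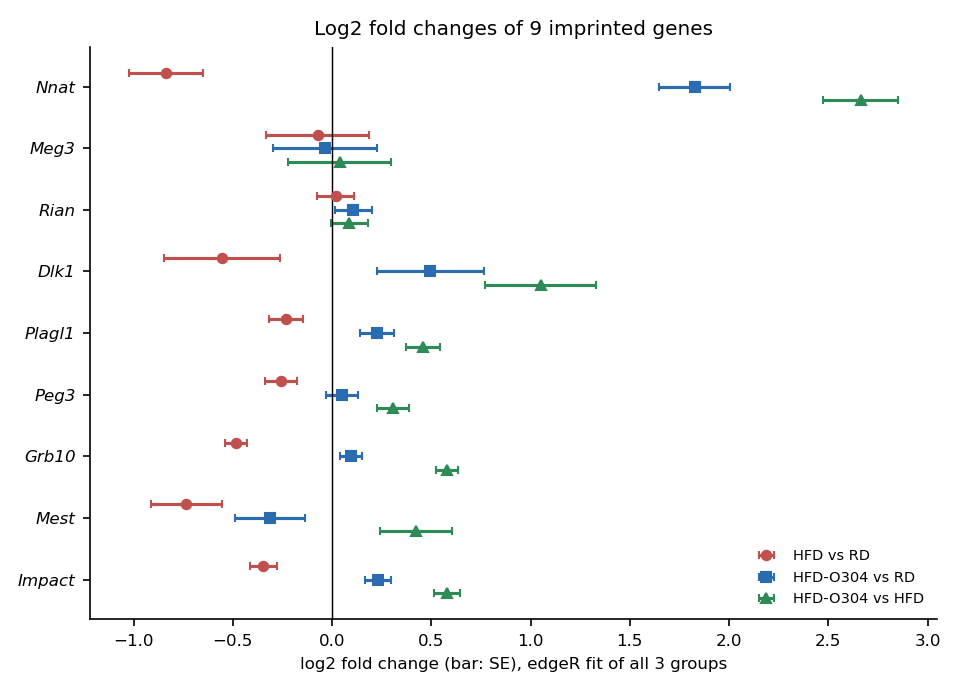
Fitted log2 fold changes (x axis) with their SE of 9 imprinted genes in HFD vs RD, HFD-O304 vs RD and HFD-O304 vs HFD islets (circles, squares and triangles), from a fit of all 21 samples, H19 left out for its few reads. Nnat lies farthest from 0 in HFD-O304 vs RD (1.83) and HFD-O304 vs HFD (2.66), and Meg3 and Rian lie within 0.11 of 0 throughout.

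Taking the 10 genes as a group, their median log2 fold change was -0.30 for HFD vs RD, 0.17 for HFD-O304 vs RD and 0.44 for HFD-O304 vs HFD, against -0.0044, 0.0078 and 0.027 over all genes tested. Without H19 it was -0.35, 0.11 and 0.46. An adjusted p under 0.01 was reached in HFD vs RD by 3 of the 10, Nnat, Grb10 and Impact, all lower, where 3.54% of all genes were called and 1.54% were called lower, and 1 of the 10, Grb10, had groups that did not overlap, as had 1.35% of genes. In HFD-O304 vs RD it was reached by 1, Nnat, where 1.31% of genes were called and 0.404% called higher, and 2, Nnat and Impact, had groups that did not overlap, as had 1.56% of genes. In HFD-O304 vs HFD it was reached by 6, Nnat, Dlk1, Plagl1, Peg3, Grb10 and Impact, all higher, where 11.9% of genes were called and 5.08% called higher, and 3, Nnat, Grb10 and Impact, had groups that did not overlap, as had 6.17% of genes. Because these same counts were known when the genes were picked, the shares are given as a description only, and the comparisons share their control samples. The shares of all genes include genes with few reads, and the 10 were not compared with genes of like level.

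The islets were measured in bulk, so that fewer cells of a type and less RNA per cell cannot be told apart. Of the alpha cell markers Gcg, Irx1 and Irx2, 2 of 3 fell in HFD vs RD and 3 of 3 rose in HFD-O304 vs HFD at an edgeR adjusted p under 0.01. In normalized counts the summed level of these 3 was 783738 to 1002980 in RD islets, 289920 to 608923 in HFD islets and 818882 to 1104450 in HFD-O304 islets. Between HFD-O304 and RD islets edgeR called 0 of these 3, with 0 at an unadjusted p under 0.05 and 0 called by DESeq2, and their median log2 fold change was 0.24. Of the delta cell markers Sst, Hhex and Ghsr, 2 of 3 fell in HFD vs RD and 3 of 3 rose in HFD-O304 vs HFD islets, with summed levels of 83427 to 134502, 44979 to 101358 and 79934 to 155130 normalized counts. The delta cell markers had a median log2 fold change of 0.22 in HFD-O304 vs RD islets, with 0 called by edgeR, 1 at an unadjusted p under 0.05 and 0 called by DESeq2. The part of these cells in the levels of the 10 genes was not tested. Between HFD-O304 and HFD islets 3 of 5 duct cell markers rose, Krt19, Sox9 and Cftr, while the more abundant Krt7 and Spp1 had log2 fold changes of -0.20 and -0.33 that were not called, and the duct sum had a mean of 9619 normalized counts against 11157 in HFD islets. Stromal markers fell for 4 of 8 and endothelial markers for 2 of 6. Of those not called, the endothelial marker Esm1 had a log2 fold change of 0.44 (SE 0.12, edgeR adjusted p = 0.0114). The stromal marker Pdgfra had 0.52 (SE 0.83). Of 9 beta cell markers 5 were called in that comparison, with log2 fold changes of -0.20, -0.23 and -0.60 for Ins1, Ins2 and Iapp and of 0.74 and 0.52 for Slc2a2 and Ucn3. The acinar cell sum ranged from 118.4 to 209735 normalized counts over the samples, and edgeR called 0 of its 6 markers in every comparison, with 0 or 1 at an unadjusted p under 0.05 and 0 called by DESeq2. No marker was at 0 in all samples.

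**Figure D3:**
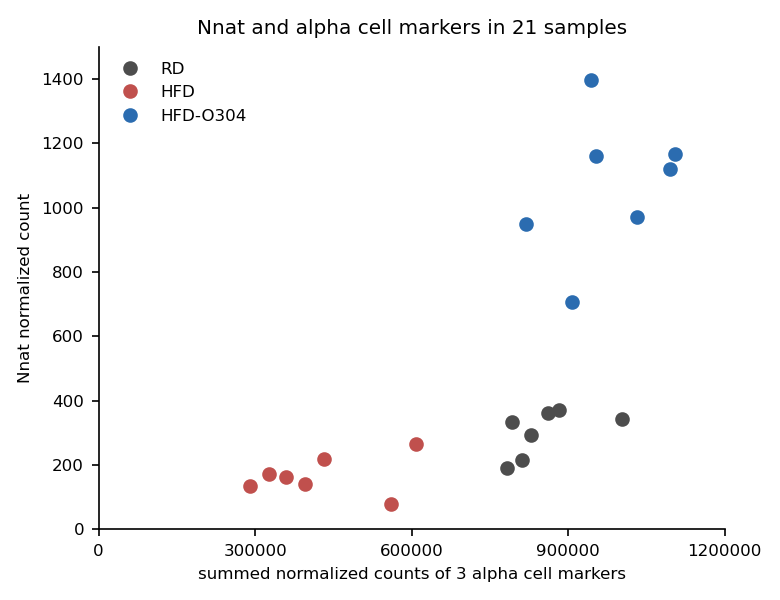
Nnat normalized counts (y axis) against the summed normalized counts of 3 alpha cell markers (x axis), 1 point per sample in RD, HFD and HFD-O304 islets. RD and HFD-O304 samples overlap along the x axis. The HFD-O304 samples have 706 to 1397 counts of Nnat and the RD samples 190 to 370, and the part of alpha cells in these levels was not tested.

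How far the genes followed these markers from sample to sample is given as a description, with both measures centred on their group means over 21 samples, for 18 relations (9 genes, 2 marker sums) looked at after values were seen. Mest had r = 0.79 with the alpha cell sum (Pearson's r, with Spearman's rho = 0.76). Without the 2 samples farthest from their group means, HFD replicates 3 and 7, r was 0.67, and within the library sets it was 0.82 and 0.76. Nnat had r = 0.18 with the alpha cell sum (rho = 0.41), which was -0.19 in replicates 1 to 4, 0.78 in replicates 5 to 7 and -0.15 without the 2 farthest samples. With the delta cell sum Nnat had r = 0.54 (rho = 0.53), with 0.43 and 0.68 within the library sets. The other relations had r of -0.37 (Rian, delta cell sum) to 0.56 (Dlk1, delta cell sum).

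The wide spread of Meg3 within groups went with a property of the libraries, the share of read pairs on no annotated exon of the counted strand. This share was 2.97% to 5.12% per sample, and pairs that lie only on exons of the opposite strand are part of it. This relation was also looked at after values were seen and is a description. Over the 21 samples Meg3 on the log2(normalized count + 1) scale had r = 0.92 with this share (rho = 0.96). Without HFD-O304 replicates 2 and 4, the 2 samples farthest from the median, r was 0.91. Within RD, HFD and HFD-O304 islets r was 0.91, 0.96 and 0.97, and within the library sets 0.96 and 0.76. Among the 13216 genes that averaged 50 normalized counts or more, Meg3 had the 15th highest r with this share.

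Rian had r = 0.81 (rho = 0.79) with the same share, with 0.83 and 0.82 within the library sets and 0.77 without the 2 farthest samples. Peg3 had r = 0.68 (rho = 0.76), with 0.72 and 0.71 within the sets and 0.74 without the 2 farthest samples. Over the 21 samples the other 7 genes had r of -0.30 to 0.30, and Nnat had r = 0.04 (rho = -0.02). Within single groups of 7 samples their r ranged from -0.82 (H19, HFD) to 0.61 (Grb10, HFD-O304). For Nnat it was -0.70, 0.003 and 0.44 in RD, HFD and HFD-O304 islets, and for Mest -0.63, -0.62 and 0.19. Meg3 and Rian also moved together, with r = 0.85 between them after centring on group means, while Dlk1, from the paternal copy of their cluster, had r = 0.03 with the share. The share itself ranged from 3.13% to 4.95% in RD islets, 3.03% to 4.53% in HFD islets and 2.97% to 5.12% in HFD-O304 islets, so the groups overlapped in it, and why it goes with these RNAs was not tested.

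**Figure D4:**
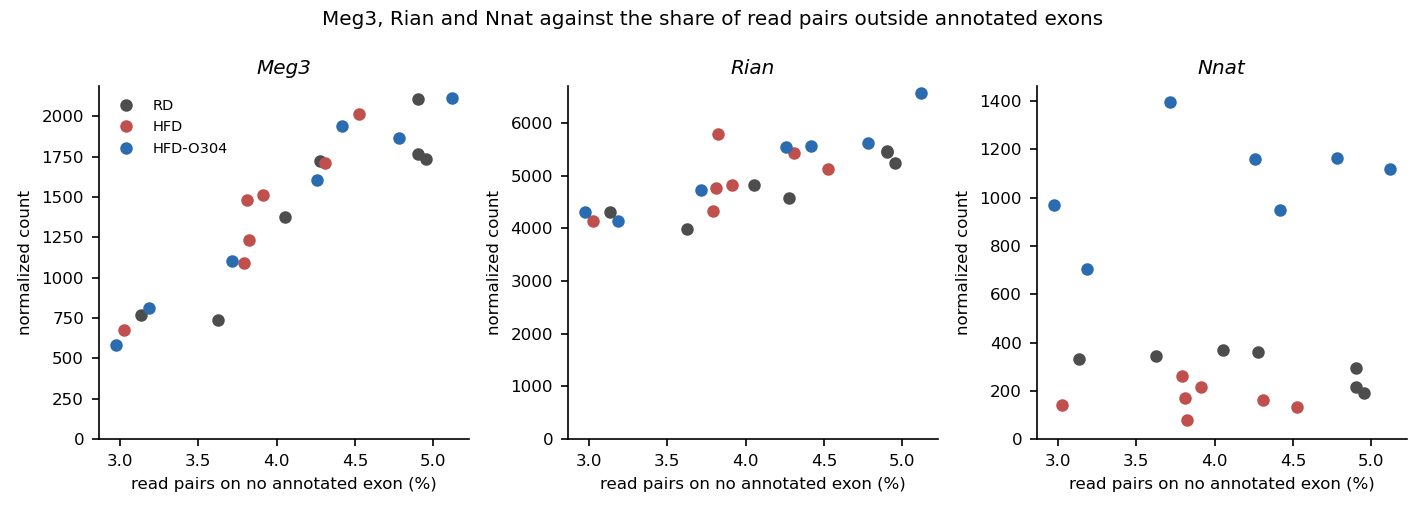
Normalized counts (y axes, from 0) of Meg3, Rian and Nnat against the percent of read pairs on no annotated exon of the counted strand (x axes). Each group has its colour, with 1 point per sample. Meg3 is higher where this share is higher within every group (r = 0.92 over 21 samples on the log2 scale), Rian has r = 0.81, and Nnat has r = 0.04.

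The genes most like Nnat over the 21 samples were looked for among 13216 genes, by Pearson's r on the log2 scale, as a description in which the samples share their groups. Camk2n1, which encodes an inhibitor of CaM kinase II, had r = 0.98, Trpm5, a cation channel of beta cells, 0.97, Tef, a PAR bZIP transcription factor, 0.96, and Cdh7, a cadherin, and Dcaf12l1 each 0.96. Trpm5 had means of 2045 ± 362 in RD islets, 904 ± 328 in HFD islets and 4785 ± 579 in HFD-O304 islets (SD, n = 7), and Camk2n1 7203 ± 553, 5328 ± 954 and 10830 ± 865. Once group means were removed, T2 (r = 0.91), Tef (0.90), Trpm5 (0.90), Camk2n1 (0.88) and Mreg (0.88) came first, so that Tef, Trpm5 and Camk2n1 were in both lists. Of the other imprinted genes of the 10, Impact came nearest to Nnat, with r = 0.88 at rank 136 over the 21 samples and 0.50 at rank 1333 after centring, followed by Plagl1 (0.74 and 0.17) and Grb10 (0.73 and -0.21).

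Imprinted genes outside the 10 were then counted from a list of 47, of which 44 had enough reads, with the adjusted p taken over all genes. This list, too, was chosen with earlier results of these data known, so its counts are a description and not an independent test. The counts do not separate the parental copies, so whether each of the 44 is imprinted in islets was not tested. In HFD vs RD islets 8 of 44 were called, 7 lower and 1 higher. In HFD-O304 vs RD islets 1 was called, Cd81, a tetraspanin, by -0.41 on the log2 scale (SE 0.06, edgeR adjusted p = 3.33e-05). Between HFD-O304 and HFD islets 13 were called, 9 higher and 4 lower. The shares of all genes called are the 3.54%, 1.31% and 11.9% given above, and the medians of the 44 were -0.12, 0.07 and 0.12. These shares are taken over all genes tested, genes with few reads included. Whether the 44 were called more often than genes of like level was not tested.

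The called genes lay partly in neighbouring positions. Sgce, Peg10, Ppp1r9a and Asb4 lie within chr6:4674350-5433022. All 4 fell in HFD vs RD islets, Peg10, a gene of retrotransposon origin, by 0.83 on the log2 scale (SE 0.16, edgeR adjusted p = 0.0012), and all 4 rose in HFD-O304 vs HFD islets, Peg10 by 1.21 (SE 0.16, edgeR adjusted p = 2.2e-06). Zim1 and Usp29 flank Peg3 on chromosome 7, at gaps of 7.44 and 0.146 kb. Zim1, a maternally expressed zinc finger gene, fell by 0.97 (SE 0.16, edgeR adjusted p = 0.000296) in HFD vs RD and rose by 1.38 (SE 0.16, edgeR adjusted p = 4.83e-07) in HFD-O304 vs HFD, where Peg3 beside it had -0.26 and 0.31. Usp29, which lies on the other strand and is paternally expressed, fell by 0.39 and rose by 0.48 (SE 0.08 in each).

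Rasgrf1, a guanine nucleotide exchange factor, fell by 0.42 (SE 0.10) in HFD vs RD and rose by 0.51 (SE 0.10) in HFD-O304 vs HFD islets. Igf2, the fetal growth factor whose gene lies near H19, rose by 1.30 (SE 0.33) in HFD-O304 vs HFD islets at a mean of only 16.2 against 6.69 normalized counts. Peg13 rose by 0.24 (SE 0.06) in the same comparison, and Inpp5f, Cd81, Tssc4 and Slc22a2 fell by 0.56, 0.46, 0.37 and 1.46. Slc22a2, an organic cation transporter, was the single gene called higher in HFD vs RD islets, at 28.2 against 6.02 normalized counts. Calls near the threshold did not survive every omission of 1 sample. The edgeR adjusted p rose to at most 0.02 for Igf2 (8 of 21 omissions), 0.0224 for Rasgrf1 in HFD vs RD (9), 0.028 for Peg13 (15) and 0.0244 for Ppp1r9a in HFD-O304 vs HFD (7), and to 0.0117 for Slc22a2 in HFD-O304 vs HFD without HFD replicate 3.

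**Figure D5:**
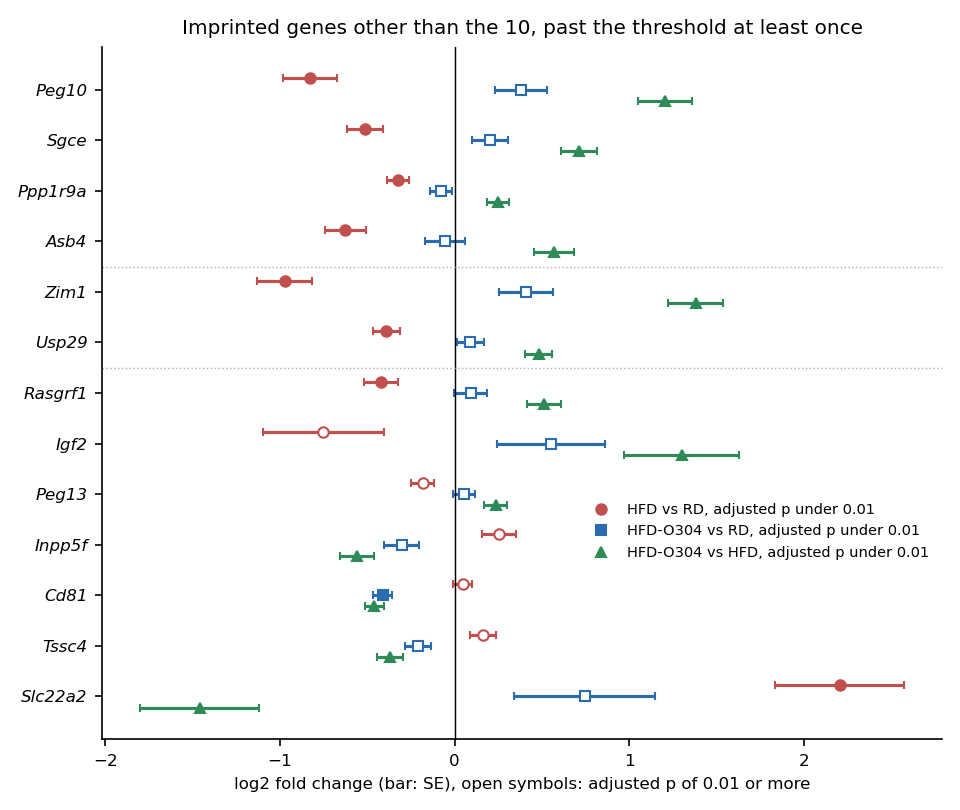
Log2 fold changes (x axis) with their SE of the 13 imprinted genes outside the 10 that were called in at least 1 comparison, filled where the edgeR adjusted p was under 0.01 and open otherwise. The 4 called genes on chromosome 6 (above the upper dotted line) and the 2 genes beside Peg3 (between the dotted lines) are lower in HFD vs RD and higher in HFD-O304 vs HFD.

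Of the neighbours on either side of the 10 genes, 18 were tested. In HFD vs RD, HFD-O304 vs RD and HFD-O304 vs HFD islets 3, 1 and 5 of these were called. Of all genes, those with few reads included, 3.54%, 1.31% and 11.9% were called. Zim1 and Usp29 were already counted among the other imprinted genes. Zim1, Usp29 and Cobl, an actin nucleator beside Grb10 at a gap of 198 kb, were called in HFD vs RD islets, the last by -0.37 (SE 0.09), in the direction of Grb10. Blcap was called in HFD-O304 vs RD, and Blcap, Zim1, Usp29, Cobl (0.50) and Cep41 (-0.48), near Mest, in HFD-O304 vs HFD islets.

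Among 12 tested genes that set, keep or remove methylation marks, Zfp57, which encodes the reader of the hexamer printed above, had means of 7.44 normalized counts in RD islets, 18.5 in HFD islets and 4.77 in HFD-O304 islets. It rose by 1.28 on the log2 scale (SE 0.29, edgeR adjusted p = 0.0062) in HFD vs RD and fell by 2.06 (SE 0.31) in HFD-O304 vs HFD islets. Uhrf1, which brings the methyltransferase DNMT1 to newly copied DNA and is itself expressed in dividing cells, rose by 1.63 (SE 0.28) and fell by 2.25 (SE 0.30). Tet1, which oxidizes methylated cytosine, fell by 0.52 (SE 0.10) in HFD vs RD, Dnmt3a rose by 0.34 (SE 0.09) in HFD-O304 vs HFD, and Trim28, the partner of ZFP57, rose by 0.21 (SE 0.05) in HFD-O304 vs RD and by 0.19 (SE 0.05) against HFD. The remaining 7 were not called by edgeR in any of the 3 comparisons, while DESeq2 called 4 of the 12 in HFD vs RD against 3 by edgeR and 5 against 4 in HFD-O304 vs HFD, and Dnmt1 had log2 fold changes of 0.03, 0.04 and 0.01 (SE 0.06 in each).

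The signal peptidase complex, which neuronatin binds, has 5 genes in the list used, all tested. Sec11c, a catalytic subunit, rose by 0.65 (SE 0.12, edgeR adjusted p = 0.000912) in HFD vs RD and fell by 1.08 (SE 0.12, edgeR adjusted p = 2.74e-07) in HFD-O304 vs HFD, where Spcs1 fell by 0.61 (SE 0.12). Nnat stood lowest in the group in which Sec11c was highest, 7400 normalized counts in HFD islets against 4683 in RD and 3480 in HFD-O304 islets. A relation between Nnat and Sec11c was not tested. Spcs2, Spcs3 and Sec11a were not called by edgeR in any comparison.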

How the data were processed

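Total RNA of 150 islets from pools of 5 mice was sequenced in 21 samples as paired 50 nt reads. The authors used FastQC and STAR with GRCm38 (Ensembl 96) and deposited the raw STAR count of read pairs per gene, unstranded and per strand. Pairs that map to several places or genes are not part of it. The strand used here held 28.8 to 36.3 times the pairs of the other. Samples were grouped by their titles, and all 55536 gene identifiers matched the annotation.

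The 27229 genes with a sum of 10 or more reads were tested with edgeR 4.0.16 (R 4.3.3) by a quasi-likelihood fit of the 3 groups with TMM factors and no covariates. Benjamini-Hochberg adjusted p values were taken over all these genes, with a threshold of 0.01. Normalized counts were counts divided by DESeq2 1.42.0 size factors. The fit was tested on simulated counts. Correlations were computed on log2(normalized count + 1). The relations with marker sums and with the share of pairs on no annotated exon of the counted strand were chosen after values were seen. Permutation p values were computed for these relations and are not given, since they are a description.

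The 10 genes and all lists were chosen with earlier results of these data known. Genes named were the 10, their neighbours, called list genes and the 5 genes most like Nnat on each measure. Some markers of the alpha cell list are not reported here and are left out of its counts and sums. Dnmt1 and Cd36 were added after their values were seen. Alternatives changed the test, size factors, filter, strand, groups fitted, replicate block, library set, threshold or samples. The depth, at least 13809266 read pairs on genes, limits precision for scarce RNAs. All samples were kept, and no pair within a group differed by sampling noise alone.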

Additional observations from a re-analysis of the deposited data

Results flagged for a closer look

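Of 30 sets of 7 values (10 genes in 3 groups), 2 had a highest sample set apart from the rest by a gap above Dixon's 95% critical value, which chance passes in about 1 of 20 sets. Both were sets of H19, with few reads. In RD islets the gap below replicate 7, which had 3 read pairs, was 0.679 of the whole range. In HFD islets the gap below replicate 4, which had 9 read pairs, was 0.772 of the range.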

How the results depend on the processing

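Of the 10 genes, 7 kept their sign in all 31 alternatives of each comparison. Meg3, Rian (HFD vs RD) and H19 did not, and none of these had passed the threshold. Nnat in HFD-O304 vs RD and HFD-O304 vs HFD, and Grb10 in HFD vs RD and HFD-O304 vs HFD, passed the threshold in all 31. Nnat in HFD vs RD passed in 19, with log2 fold changes of -1.07 to -0.62. It did not pass with unstranded counts, with only the compared groups fitted, in replicates 5 to 7 alone, or without RD replicate 1, 4, 5, 6 or 7 or HFD replicate 2, 3, 4 or 5. In HFD-O304 vs HFD, Dlk1 passed in 17 and Peg3 in 21, and Mest, just short of the threshold in HFD vs RD, passed there in 11.

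The counts of genes called were 963 for HFD vs RD, 356 for HFD-O304 vs RD and 3230 for HFD-O304 vs HFD, and those of other imprinted genes 8, 1 and 13. They moved by over 1.5 times as follows, and the cause was not tested unless fewer samples or another threshold set it. DESeq2 called 1758 and 727 genes in the first and second comparison. With only the compared groups fitted, 635 genes were called in the first and 2 other imprinted genes in the second. With the library set as covariate the counts were 1611 and 543. Replicates 1 to 4 alone gave 587, 88 and 1994 genes, 4 other imprinted genes for HFD vs RD and 0 for HFD-O304 vs RD (edgeR, 10 at an unadjusted p under 0.05, DESeq2 not run on these samples alone). Replicates 5 to 7 alone gave 486 genes for HFD vs RD and 1577 for HFD-O304 vs HFD, with 2 and 6 other imprinted genes. A threshold of 0.05 gave 2148, 785 and 5150 genes and 20 other imprinted genes in HFD-O304 vs HFD. Leaving out 1 sample gave 590 (without RD replicate 7) to 1590 (without HFD replicate 7) genes in HFD vs RD, with 598 without HFD replicate 4, and 223 (without HFD-O304 replicate 5) to 423 in HFD-O304 vs RD, with 235 without HFD-O304 replicate 1.

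Groups share replicate numbers, and the labels do not say that a number marks a shared batch. Deviations from the group means correlated by over 0.1 in 4, 6 and 5 of 7 same-numbered pairs (means of 0.20, 0.29 and 0.14), short of every pair, so the samples were not treated as paired. With the replicate block 1577 genes were called for HFD vs RD and 543 for HFD-O304 vs RD, Peg3 and Mest passed for HFD vs RD, and Dlk1 did not for HFD-O304 vs HFD. Depth limits H19 and Dlk1, which had 2 to 57 read pairs per sample.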
